A study of Mus musculus with 6 samples.

Results

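Type I interferon response genes were followed in blood endothelial cells sorted from the intestine of mice whose epithelium had lost Apc. The group was a list of 39 gene symbols, and each gene was read through a probe set that the platform annotation assigns to that symbol alone (Sp100 and Ifi35 have several, of which the brightest on average was read). Such a probe set existed for 37 of the 39 genes, out of 22180 genes on the array. Of these 37, 35 lay above background and were tested among 15312 genes. Oas1a, read only together with Oas1g, and Ifi44 had no probe set of their own and were not analysed here. Mx1 and Epsti1 were measured but not above background.

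The knockout group was 3 arrays from mice of genotype Apcfl//fl with Villin-CreERT2, and the control group 3 arrays from WT mice with Apcfl//fl, for which the labels name no Cre. The adult mice of both groups were of mixed C57BL/6 x 129 background and had subcutaneous tamoxifen on each of 5 days, with harvest on day 6. Tamoxifen activates CreERT2, and the villin promoter directs it to intestinal epithelium, a cell type other than the endothelium profiled. Apc restrains Wnt signalling. Cells positive for CD31 and negative for CD45, EpCAM and gp38 were sorted after collagenase digestion, and the RNA was amplified before hybridisation to Affymetrix Mouse Gene 2.0 ST arrays. Each array is labelled a biological replicate, and the labels do not say how many mice each holds, so the p-values measure the spread between these samples.

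Type I interferons bind a receptor made of IFNAR1 and IFNAR2, which activates the kinases JAK1 and TYK2. These phosphorylate STAT2, which joins IRF9 in a complex that binds the interferon-stimulated response element (ISRE) upstream of the target genes. Many targets encode antiviral proteins that block viral entry, destroy RNA or deplete nucleotides, and others, such as the sensors RIG-I and MDA5 and the factor IRF7, feed back on interferon production. Endothelial cells carry the receptor, and a low level of this response is known in the gut in the absence of infection. Interferon-gamma acts through another element, GAS, and it induces part of the same genes.

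The promoters of 5 members are shown first, because the ISRE is the sequence that the response is read through. Each run is the 150 bases before the gene's start in RefSeq (build GRCm38.p6), 5′ to 3′ on the gene's strand, with ISRE matches in capitals. Rsad2 lies at chr12:26456453-26456602 on the minus strand and Cmpk2 at chr12:26469065-26469214 on the plus strand, and both genes were lower in the knockout. Isg15 lies at chr4:156200819-156200968 on the minus strand. Ifit1 at chr19:34640739-34640888 and Ifit3 at chr19:34583379-34583528 lie on the plus strand.
Rsad2: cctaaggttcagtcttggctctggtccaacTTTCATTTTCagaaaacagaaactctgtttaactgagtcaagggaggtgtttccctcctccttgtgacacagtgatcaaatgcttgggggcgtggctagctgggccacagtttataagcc
Cmpk2: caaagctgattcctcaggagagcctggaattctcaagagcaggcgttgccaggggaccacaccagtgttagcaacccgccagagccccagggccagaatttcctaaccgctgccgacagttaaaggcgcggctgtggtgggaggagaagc
Isg15: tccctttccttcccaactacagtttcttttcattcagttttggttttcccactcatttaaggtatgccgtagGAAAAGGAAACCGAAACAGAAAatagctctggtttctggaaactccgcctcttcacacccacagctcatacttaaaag
Ifit1: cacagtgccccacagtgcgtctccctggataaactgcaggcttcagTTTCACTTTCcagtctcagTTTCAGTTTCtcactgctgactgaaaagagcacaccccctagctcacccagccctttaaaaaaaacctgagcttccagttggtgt
Ifit3: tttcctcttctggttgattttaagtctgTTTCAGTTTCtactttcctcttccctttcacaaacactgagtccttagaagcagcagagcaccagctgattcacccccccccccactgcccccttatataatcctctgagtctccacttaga

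The ISRE was searched as TTTCNNTTTC and as GAAANNGAAA on the other strand, over 250 bases before and 50 after the start. The match in Rsad2 began 120 bases before the start, and those in Ifit1 began 104 and 85 bases before it. Isg15 held 3 overlapping matches, beginning 78, 72 and 66 bases before the start, and Ifit3 held matches beginning 156 bases (outside the run shown) and 122 bases before it. Cmpk2 held none in this window. RefSeq windows were found for 31 of the 39 members, all but Usp18, Oas2, Mx1, Mx2, Dhx58, Zbp1, Rtp4 and Parp14. An ISRE match was present in 15 of these 31 (48.4%), against 3.99% of 27025 genes and 3.44% of 32851 windows. The GAS letters TTCNNNGAA, the same on both strands, were present in 9 of 31 members (29.0%), against 9.55% of genes and 8.3% of windows, and 2 ISRE matches overlapped a GAS match.

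The deposited values are log2 intensities after RMA normalization, and a log2 change is knockout minus control, with its standard error after ±. Background was set at a log2 value of 4.11, the 90th percentile of 1429 olfactory, vomeronasal and bitter taste receptor genes. A gene was called when its adjusted p over all tested genes (limma, Benjamini-Hochberg) was under 0.05. Array medians over all probe sets lay between 4.77 and 4.81, and arrays correlated at 0.977 or more within groups and at 0.964 to 0.974 between them. Pecam1, which encodes the sort marker CD31, was between 11.4 and 11.5 on all 6 arrays. Apc changed by -0.16 ± 0.14 (adjusted p = 0.65), which does not check the labels because the driver acts in another cell type.

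The interferon genes leaned downward in the sorted samples of the knockout group, and none of those tested was called as higher. Of the 35 tested members, 4 were called as lower and 0 as higher by limma, against 1.47% of all genes called as lower, 1.1% as higher and 2.57% in either direction. The called genes were Rsad2, Cmpk2, Samhd1 and Sp100, with falls between 1.43-fold and 2.31-fold. At an unadjusted p of 0.05, 14 members were lower and 0 higher, against 9.22% and 7.2% of all genes. The knockout arrays lay entirely below the control arrays for 15 members and entirely above them for 0, against 12.3% and 9.78% of all genes. The change was below 0 for 29 of the 35, against 53.3% of all genes, and its median was -0.17, against -0.017 over all genes. In sorted bulk samples a lower value from fewer cells of a type and from less RNA per cell cannot be told apart.

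**Figure D1:**
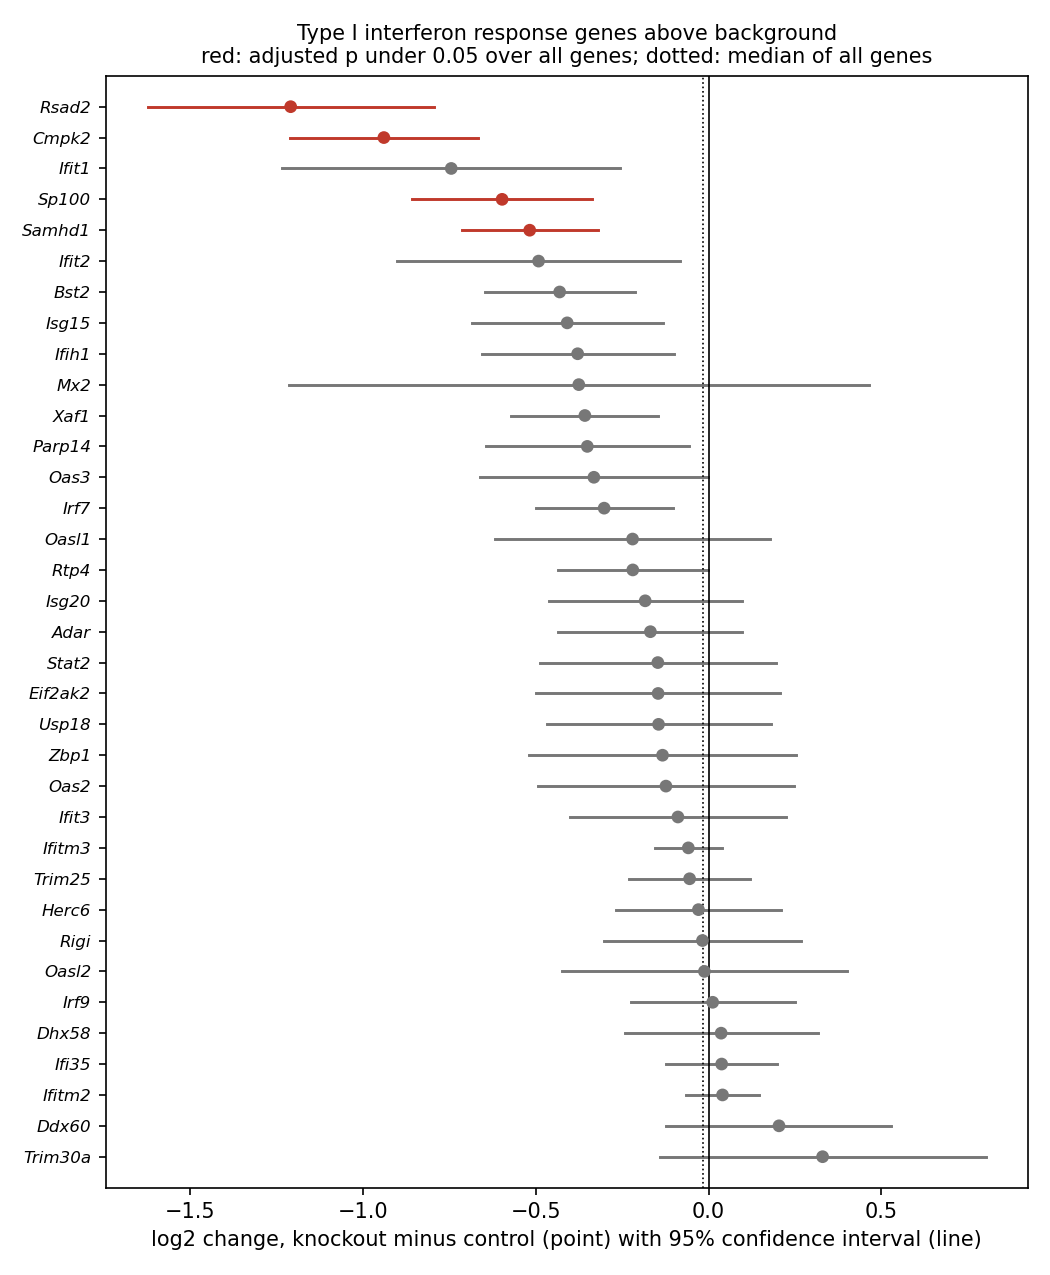
Log2 change (knockout minus control, x axis) of each of the 35 tested type I interferon response genes (y axis), with the 95% confidence interval as a line, from 3 arrays per group. Red marks the 4 genes called over all genes, all to the left of 0; the points run from -1.21 for Rsad2 to 0.33 for Trim30a, with 29 below 0, and the dotted line is the median of all genes, -0.017.

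Transcripts of several other cell types also differed between the groups. Of 15 enterocyte and epithelial markers measured, all above background in their mean over the 6 arrays, 10 were called as lower, and their mean log2 value ranged from 5.39 to 5.71 on the knockout arrays and from 6.81 to 8.67 on the control arrays. Epcam, a marker the sort gated out, was at 3.88, 7.20 and 6.24 on control arrays 1, 2 and 3 and between 3.74 and 3.81 on the knockout arrays. Epcam was thus below the background level on control 1 and all knockouts, as was Sis on all knockouts (3.76 to 3.89), and such markers passed the filter through the controls. Of 12 mural cell markers, 6 were called as lower, with means from 7.52 to 7.91 in the knockout and from 8.25 to 8.54 in the control. Among 12 measured T and NK cell markers, 1 was called as lower (Ccl5), with means from 4.49 to 4.73 in the knockout and from 5.06 to 5.75 in the control. All 10 tested markers of that list had changes below 0. At an unadjusted p of 0.05, 6 of the 10 were lower (60%, against 9.22% of all genes). Klrd1 and Ncr1 of that list were not above background, and Ptprc, which encodes CD45, was between 3.82 and 4.78. The macrophage list (13 markers) had means from 5.43 to 5.81 in the knockout and from 5.35 to 5.58 in the control. For the endothelial list (12 markers) they ran from 10.86 to 10.94 and from 10.78 to 10.84. Of the 12 endothelial markers, 1 was called as higher, Eng (0.26 ± 0.044, adjusted p = 0.0211 by limma). At an unadjusted p of 0.05, 5 of them were higher and 0 lower. For fibroblast, lymphatic endothelial and B cell lists the means were 5.60 to 6.02, 5.11 to 5.84 and 6.31 to 7.01 in the knockout and 5.95 to 6.40, 4.93 to 5.38 and 6.26 to 6.56 in the control, with 1 gene called as lower in the first and 1 as higher in the second (Lyve1). The plasmacytoid dendritic cell list, of cells that make much interferon, had means of 4.33 to 4.75 and 4.74 to 5.64, and 0 of its 4 tested genes were called by limma, with 2 lower at an unadjusted p of 0.05. Its widest gap was in Klk1, at 3.72, 2.48 and 2.77 in the knockout and 3.23, 7.28 and 6.53 in the control, high on the same arrays as Epcam. Siglech was at 4.30, 4.59 and 4.82 in the knockout and 5.09, 5.43 and 4.84 in the control (-0.55 ± 0.19, adjusted p = 0.192). Ly6d (0.13 ± 0.26) and Cox6a2 (-0.12 ± 0.17) had overlapping groups, and Ccr9 was not above background. The part of these cells in the interferon values was not tested. Control 1 had the lowest epithelial mean of the controls (6.81), above every knockout, and the highest mural mean of the 6 arrays (8.54). Against control 1 alone the 4 called members, which were called with that array among the controls, had changes of -1.45 (Rsad2), -0.79 (Cmpk2), -0.56 (Samhd1) and -0.57 (Sp100), with 0 of 35 members called by limma in that smaller comparison and 5 at an unadjusted p of 0.05.

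Of the 6 tested members grouped as RNA and nucleotide effectors, 3 were called as lower by limma, against 1.47% of all genes. Rsad2 encodes viperin, an enzyme that makes a chain-terminating nucleotide. It was at 7.66, 7.13 and 7.46 on control arrays 1, 2 and 3 and at 6.47, 6.22 and 5.93 on knockout arrays 1, 2 and 3. The lowest control thus lay above the highest knockout array, and Rsad2 was 2.31-fold lower (-1.21 ± 0.18, n = 3 per group, adjusted p = 0.0137). Cmpk2, a mitochondrial nucleotide kinase gene, is the immediate neighbour of Rsad2, with 0 protein-coding genes between them in RefSeq. Its values were 7.16, 7.38 and 7.40 in the controls and 6.40, 6.39 and 6.34 in the knockouts. The knockout arrays were close together and all below the controls, and Cmpk2 was 1.92-fold lower (-0.94 ± 0.12, adjusted p = 0.00792). The 2 genes did not rank the controls alike, since control 1 was the highest for Rsad2 and the lowest for Cmpk2.

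Samhd1 encodes a hydrolase that depletes the nucleotides needed for reverse transcription. It was at 9.86, 9.75 and 9.85 in the controls and at 9.42, 9.32 and 9.15 in the knockouts. The groups did not overlap, and the fall was 1.43-fold (-0.52 ± 0.087, adjusted p = 0.0205). The other 3 members of this role were Isg20, an RNA exonuclease gene (-0.18 ± 0.12), Adar, the gene of an RNA-editing enzyme (-0.17 ± 0.12), and Eif2ak2, which encodes the kinase PKR (-0.15 ± 0.16). None of these 3 passed (adjusted p from 0.522 to 0.706), although the knockout arrays of Isg20 and Adar lay below their controls. The call of Rsad2 ended without knockout 3 (adjusted p = 0.0571) or control 3 (adjusted p = 0.0603). That of Samhd1 ended without knockout 2, knockout 3 or control 3 and without the variance trend (adjusted p from 0.0558 to 0.0815), while Cmpk2 stayed called with any 1 array left out.

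Among the transcriptional regulators, Sp100 fell and Irf7 lay lower without passing. Sp100 encodes a nuclear body protein that represses incoming viral DNA. The probe set used was at 8.98, 8.93 and 9.11 in the controls and at 8.62, 8.22 and 8.39 in the knockouts. These values did not overlap, and the fall was 1.51-fold (-0.60 ± 0.12, adjusted p = 0.0327). Of the other 3 probe sets of Sp100, a bright one had a change of -0.65, and those with control means of 6.12 and 4.16 had changes of -0.60 and -0.53. Both of these dimmer probe sets had overlapping groups. In the dimmest, knockout 3 was at 5.06, above controls 1 and 3 (3.44 and 3.68). The annotation assigns a further probe set to Sp100 and Gm7609 together, so probes of this locus may be shared with a related gene. The call ended in each setting that left out an array other than knockout 1 (adjusted p from 0.0619 to 0.124), with the mean of all probe sets (adjusted p = 0.324) and without the variance trend (adjusted p = 0.0834).

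Irf7, the factor that amplifies interferon production, was at 8.42, 8.33 and 8.38 in the controls and at 8.12, 8.05 and 8.05 in the knockouts. All knockout arrays lay below all controls by a small margin (-0.30 ± 0.088, adjusted p = 0.118). The DNA-binding subunit of the interferon complex, Irf9, was at 7.60, 7.55 and 7.74 in the controls and 7.64, 7.72 and 7.57 in the knockouts. Its groups overlapped throughout, and the 95% confidence interval of its change ran from -0.23 to 0.25. Stat2, the partner of IRF9 in that complex, had a change of -0.15 ± 0.15 with overlapping groups.

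The IFIT genes, whose products bind foreign RNA and block its translation, were lower for 2 of 3 at an unadjusted p of 0.05 and for 0 after adjustment by limma. Ifit1 was at 7.41, 7.84 and 7.96 in the controls and at 7.33, 6.54 and 7.11 in the knockouts. The groups only just separated, with knockout 1 near control 1 and knockout 2 far below the others (-0.75 ± 0.22, adjusted p = 0.118). Ifit2 was at 6.68, 6.71 and 6.46 in the controls and 6.51, 5.94 and 5.93 in the knockouts. Here knockout 1 lay within the controls (-0.49 ± 0.18, adjusted p = 0.213). Ifit3 had a change of -0.089 ± 0.14 with a 95% confidence interval from -0.40 to 0.22, and its groups overlapped. It has a close copy, Ifit3b, so its signal may hold both. Whether the 3 genes differed from each other was not tested.

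**Figure D2:**
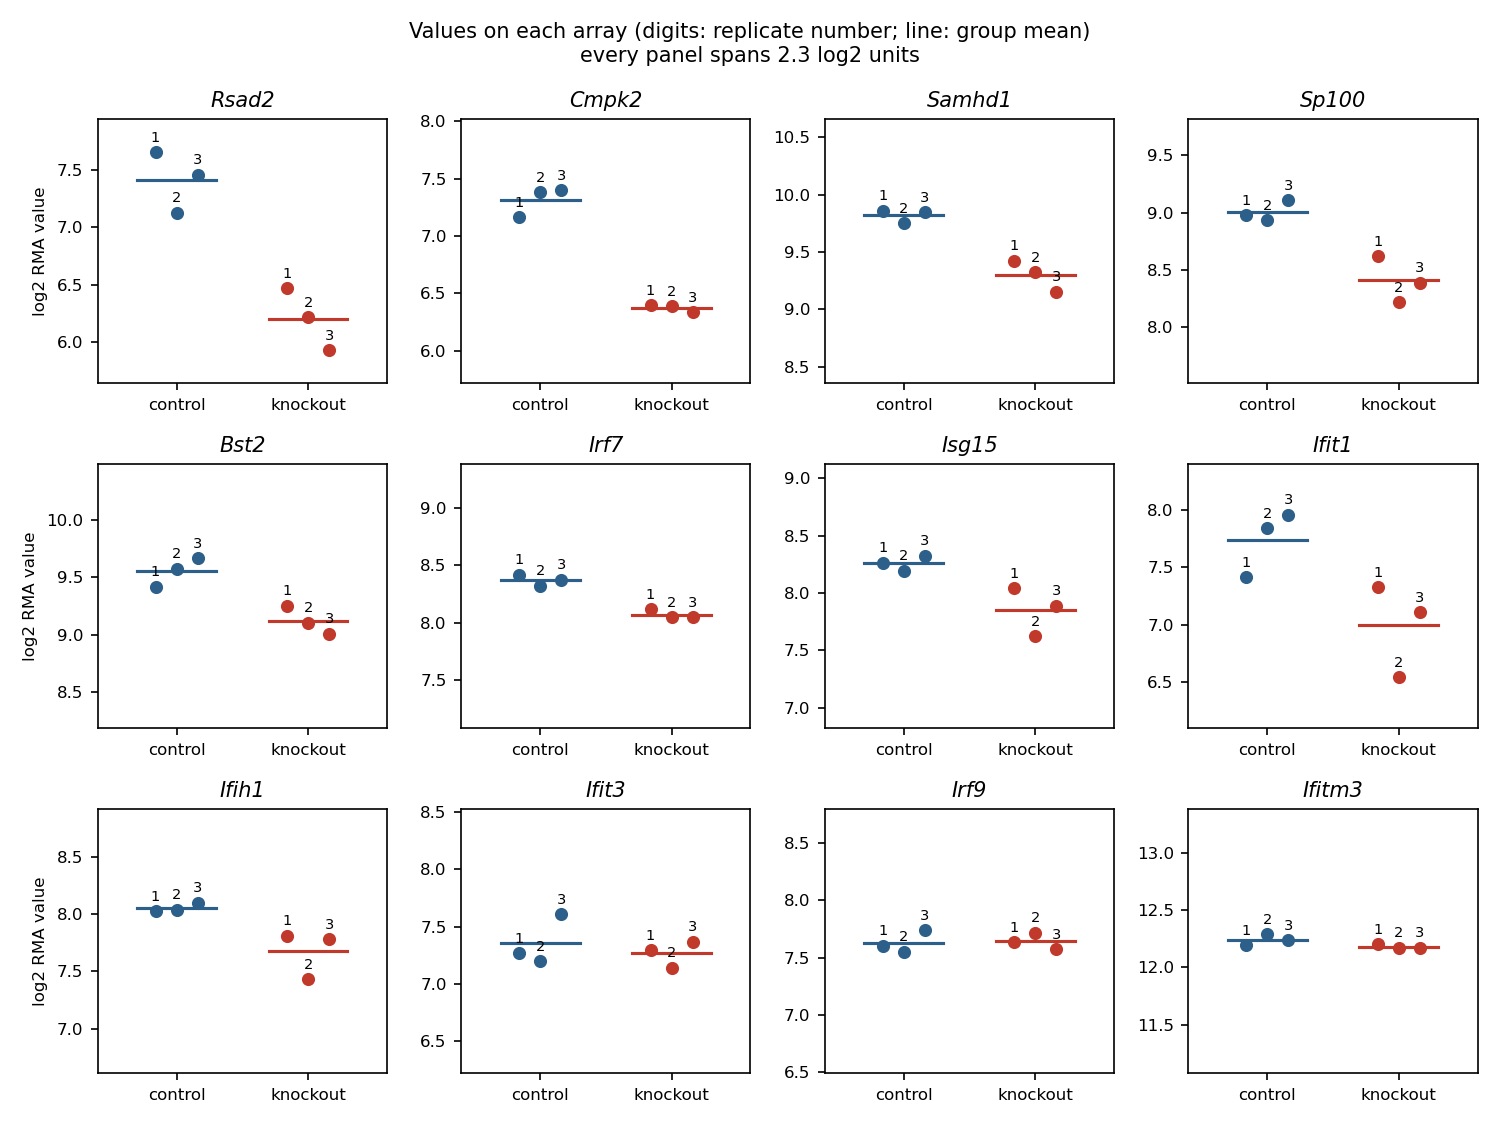
Log2 RMA value (y axis) on each array for 12 members, controls in blue and knockouts in red, with the replicate number at each point and the group mean as a line. The panels of Rsad2, Cmpk2, Samhd1 and Sp100 show groups that do not overlap, as do Bst2, Irf7, Isg15, Ifit1 and Ifih1, while Ifit3, Irf9 and Ifitm3 overlap.

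In the ISG15 system, a ubiquitin-like tag with its ligases and protease, only the tag itself stood apart. Isg15 was at 8.26, 8.20 and 8.33 in the controls and at 8.04, 7.62 and 7.89 in the knockouts. The groups did not overlap, but the change did not pass (-0.41 ± 0.12, adjusted p = 0.129). Usp18, which removes the tag and also restrains the receptor, was at 7.28, 7.53 and 7.06 in the controls and 7.24, 7.19 and 7.01 in the knockouts, which overlap (-0.14 ± 0.14, adjusted p = 0.68). The ligase genes Herc6 and Trim25 had changes of -0.029 ± 0.11 and -0.055 ± 0.078. Trim25 was at 9.17, 9.15 and 9.07 in the controls and 9.10, 9.004 and 9.12 in the knockouts, so that control 3 lay among the knockout values.

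The OAS enzymes make the messenger that activates RNase L, and their like proteins act on other antiviral steps. Oas3 was at 5.06, 5.03 and 5.39 in the controls and at 4.79, 4.88 and 4.82 in the knockouts. The groups did not overlap, with control 3 well above the rest (-0.33 ± 0.15, adjusted p = 0.298). Oasl1, a translational repressor of Irf7, was at 6.08, 5.51 and 5.97 in the controls and 5.68, 5.50 and 5.72 in the knockouts. Control 2 sat at the knockout level there (-0.22 ± 0.18, adjusted p = 0.597). Oas2 had a change of -0.12 ± 0.16. Oasl2 was at 7.14, 7.39 and 7.48 in the controls and at 7.73, 7.09 and 7.15 in the knockouts, with knockout 1 the highest of all arrays, and its change of -0.012 ± 0.18 turned to 0.012 when arrays were centred on their medians.

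The Mx GTPases trap viral particles, and Mx1 is defective in most laboratory mouse strains. Mx1 lay between 3.41 and 3.79 on the 6 arrays, below the background level. Mx2 was at 4.45, 6.08 and 4.95 in the controls and at 4.96, 4.38 and 5.03 in the knockouts. Control 2 alone was high, and the change of -0.38 ± 0.37 (adjusted p = 0.679) became 0.083 without it.

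Among membrane proteins that hold viruses back, Bst2 and the IFITM genes gave different pictures. Bst2, which encodes the tether tetherin, was at 9.42, 9.58 and 9.67 in the controls and at 9.25, 9.11 and 9.01 in the knockouts. The groups did not overlap, and the change of -0.43 ± 0.096 lay just outside the threshold (adjusted p = 0.0533). It passed with a stricter filter on dim genes, repeated quantile normalization, a robust variance fit or control 1 left out (adjusted p from 0.0337 to 0.0495). In the other settings at this threshold it did not pass, among them no variance trend (limma adjusted p = 0.142) and the replicate number as a block (0.0997). With any single array other than control 1 left out, the limma adjusted p ran from 0.0654 to 0.173. Ifitm3, which blocks virus entry at endosomes, was at 12.19, 12.29 and 12.24 in the controls and at 12.20, 12.17 and 12.17 in the knockouts. Its groups overlapped at control 1, and the interval of its change was narrow, from -0.16 to 0.038. Ifitm2 had a change of 0.040 ± 0.047 and overlapping groups. The IFITM genes are close relatives whose probes may share signal. Both were at log2 values of 11.7 or more on every array.

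The sensors of viral nucleic acid did not move as 1 group. Ifih1, which encodes MDA5, was at 8.02, 8.04 and 8.10 in the controls and at 7.81, 7.43 and 7.78 in the knockouts. The groups did not overlap, with knockout 2 the lowest (-0.38 ± 0.12, adjusted p = 0.16). Rigi, which encodes RIG-I and is listed as Ddx58 on this array, was at 7.92, 8.11 and 7.97 in the controls and at 8.22, 7.90 and 7.82 in the knockouts. Knockout 1 was the highest and knockout 3 the lowest of all arrays, and the change of -0.018 ± 0.13 turned to 0.0070 with median-centred arrays. Ddx60, a helicase gene, was at 5.62, 5.76 and 5.51 in the controls and 5.98, 5.83 and 5.70 in the knockouts, the only sensor with a change above 0.1 (0.20 ± 0.14, adjusted p = 0.545). Dhx58, a regulator of RIG-I and MDA5, was at 0.036 ± 0.12, and Zbp1, a sensor of left-handed nucleic acid that triggers cell death, at -0.13 ± 0.17.

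Of the remaining effectors, Xaf1, Parp14 and Rtp4 lay lower on every knockout array than on any control. Xaf1, which promotes apoptosis, was at 9.34, 9.44 and 9.63 in the controls and at 9.21, 9.08 and 9.06 in the knockouts. Its change of -0.36 ± 0.094 did not pass (adjusted p = 0.0897). Parp14, an ADP-ribosyltransferase gene, was at 8.26, 8.35 and 8.38 in the controls and at 8.15, 7.70 and 8.10 in the knockouts. Again knockout 2 was the lowest (-0.35 ± 0.13, adjusted p = 0.216). Rtp4, which encodes a receptor-transporting protein, had a change of -0.22 ± 0.096 (adjusted p = 0.299). Its groups barely separated, with knockout 1 at 8.926 and control 1 at 8.929. Ifi35 was at 9.47, 9.53 and 9.50 in the controls and 9.59, 9.47 and 9.56 in the knockouts, with a change of 0.038 ± 0.070. Trim30a, a regulator of inflammatory signalling, had the highest change of the tested members at 0.33 ± 0.21 (adjusted p = 0.494), and knockout 2 lay below the controls for it while knockouts 1 and 3 lay above. Epsti1 was at 3.82, 4.61 and 4.77 in the controls and at 3.39, 3.74 and 3.78 in the knockouts, with only controls 2 and 3 above the background level.

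The members also varied between arrays of the same group. Knockout 2 was the lowest of all 6 arrays for 17 of the 35 tested members, against 18.0% of all genes, and the lowest of the knockouts for 20, against 33.7%. The median member lay 0.28 below its control mean in knockout 2, and the corresponding values were -0.082 in knockout 1 and -0.19 in knockout 3. On the control arrays these medians were -0.031, 0.020 and 0.046, and over all genes they lay between -0.030 and 0.011 on the 6 arrays. Control 3 was the highest array for 13 members, against 13.8% of all genes. Knockout 3 was the lowest of the knockouts for 13 members, against 34.2% of all genes, with Rsad2, Cmpk2, Samhd1 and Bst2 among the 13. Without knockout 2 the median change of the members was -0.17, with 26 of 35 below 0.

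**Figure D3:**
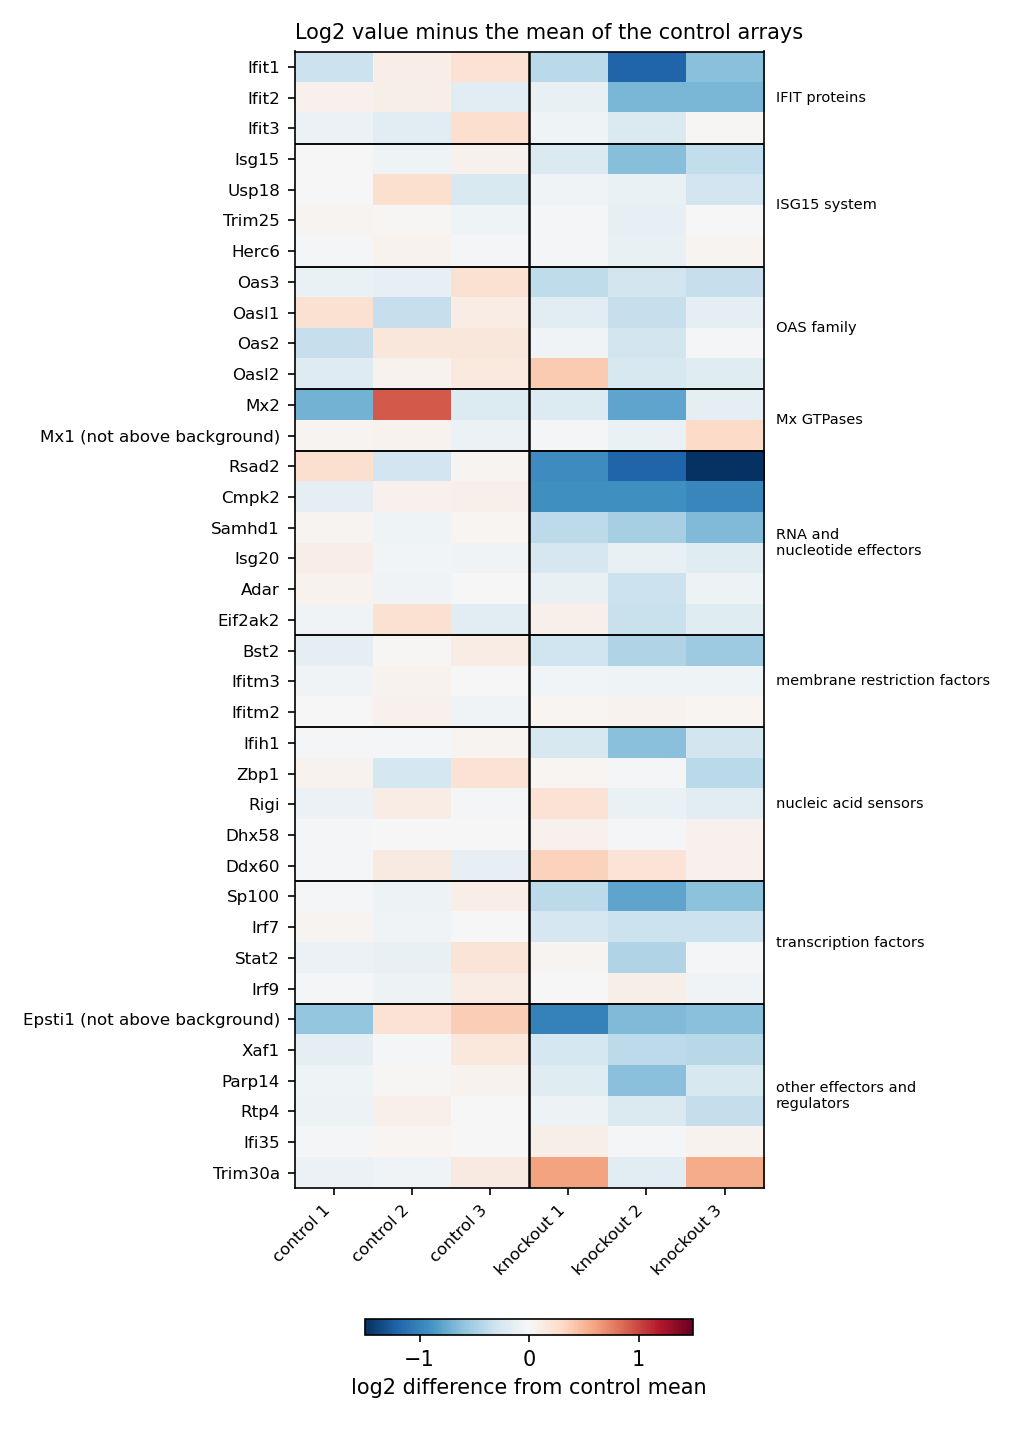
Log2 value on each array (columns) minus the mean of the 3 control arrays, for the 37 measured members (rows) grouped by role; blue is lower and red higher. Rsad2 and Cmpk2 are blue on all 3 knockout arrays, knockout 2 is the lowest array for 17 of the 35 tested members, and of the knockouts only 1 and 3 are red for Trim30a.

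Promoter matches were also set beside the changes. The 14 tested members with an ISRE match had a median change of -0.15, and the 14 without had -0.20, as a description with no test. Of the 4 called genes, all of which had a window, only Rsad2 held the ISRE letters and only Samhd1 the GAS letters. Neighbouring genes were not alike throughout. Rsad2 and Cmpk2 both fell, but Ifit2 and Ifit3, also adjacent, had changes of -0.49 and -0.089, and Oas2 and Oas3 had changes of -0.12 and -0.33.

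The receptor and ligand genes upstream were looked at in the same fit. Ifnb1, the gene of interferon beta, lay between 2.97 and 3.24 on the 6 arrays and was not above background, as were 10 of the 18 measured type I and III ligand genes. Of the other 8, 0 were called by limma and 1 was lower at an unadjusted p of 0.05. Interferon alpha genes are close copies of each other, so their probe sets may share signal. Ifnar1 was at 8.95, 8.38 and 8.66 in the controls and at 8.27, 8.20 and 8.21 in the knockouts. All knockout arrays lay below the controls, control 2 being close to them (-0.43 ± 0.14, adjusted p = 0.154). Ifnar2 had values of 10.4, 10.5 and 10.4 in the controls and 10.3 on all 3 knockout arrays (-0.12 ± 0.059, adjusted p = 0.349). Of 10 measured receptor, kinase and STAT genes, 4 were lower and 1 higher at an unadjusted p of 0.05, against 9.22% and 7.2% of all genes. The 1 called as lower by limma (10%, against 1.47% of all genes) was Ifngr2, which encodes a chain of the interferon-gamma receptor. It was at 8.25, 8.42 and 8.18 in the controls and at 7.71, 7.76 and 7.65 in the knockouts, with no overlap (-0.58 ± 0.10, adjusted p = 0.0258).

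Of 12 tested adaptors and inducers, 1 was lower and 2 higher at an unadjusted p of 0.05, against 9.22% and 7.2% of all genes. The 1 called as lower by limma (8.33%, against 1.47% of all genes) was Irf1, a factor induced chiefly by interferon-gamma. It was at 9.02, 8.71 and 8.80 in the controls and at 8.38, 8.35 and 8.34 in the knockouts, which lay close together below the controls (-0.49 ± 0.099, adjusted p = 0.0406). Sting1, the adaptor of DNA sensing, leaned the other way (0.29 ± 0.097, adjusted p = 0.177). Of 6 negative regulators 0 were called by limma, with 2 lower at an unadjusted p of 0.05, and Socs3 had a change of -0.43 ± 0.10 (adjusted p = 0.0692). Of 59 other tested interferon-stimulated genes, 1 was called as lower (1.69%, against 1.47% of all genes). It was Gm4951, an interferon-inducible GTPase gene. Its values were 9.24, 8.97 and 9.36 in the controls and 8.36, 7.71 and 8.47 in the knockouts (-1.01 ± 0.19, adjusted p = 0.0312). At an unadjusted p of 0.05, 13 of the 59 were lower and 2 higher (22.0% lower, against 9.22% of all genes). The knockout arrays lay entirely below the controls for 20.3% of them, against 12.3% of all genes, and their median change was -0.057. Their changes were below 0 for 35 and above 0 for 24 (59.3% below, against 53.3% of all genes).

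The median change of the 20 tested genes of interferon-gamma GTPases and antigen presentation was -0.27. Of these, 6 were called as lower and 0 as higher, against 1.47% and 1.1% of all genes. The called GTPase genes were Gbp5 (-1.03 ± 0.14), Igtp (-0.82 ± 0.11) and Irgm2 (-0.52 ± 0.097). The others called were the immunoproteasome subunit genes Psmb9 (-0.41 ± 0.066) and Psmb10 (-0.35 ± 0.071), and the peptide-loading gene Tapbp (-0.54 ± 0.12). Adjusted p-values of the 6 (limma) ran from 0.00878 to 0.0482. Beside them, 10 of 15 enterocyte, 6 of 12 mural and 1 of 10 tested T and NK cell markers were called as lower, and their part in these values was not tested. The chemokine gene Cxcl10, which both interferon types induce, was at 5.95, 5.39 and 4.99 in the controls and 4.80, 5.37 and 4.82 in the knockouts, with overlapping groups (-0.45 ± 0.26, adjusted p = 0.441). Cxcl10, Sting1 and Socs3 were chosen after their values were seen.

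**Figure D4:**
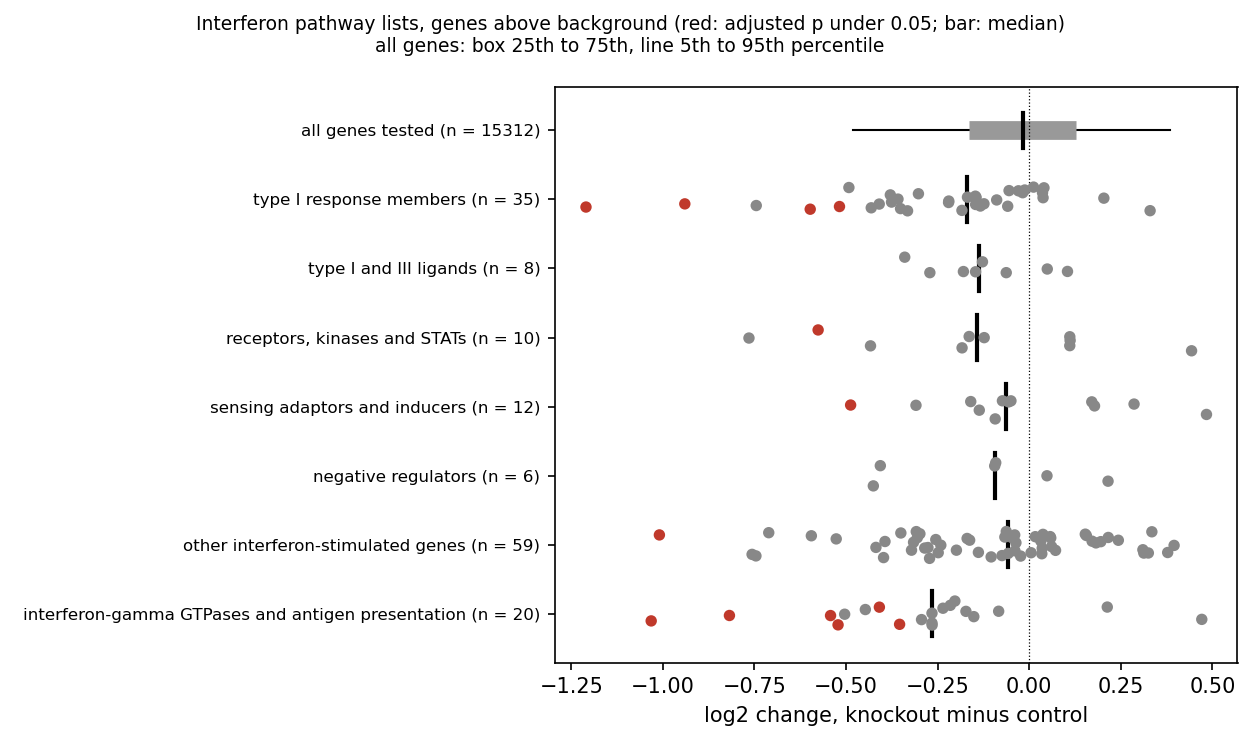
Log2 change (knockout minus control, x axis) of each gene above background in the member list and in 6 other interferon pathway lists (y axis), with medians as bars and called genes in red; for all 15312 genes the box spans the 25th to 75th and the line the 5th to 95th percentile. The members' median is -0.17, that of the interferon-gamma list -0.27 and that of all genes -0.017.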

How the data were processed

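The authors deposited 1 table of log2 values per probe set for 6 arrays. RMA and the oligo package are named in the submitters' processing notes; their versions are not given in the sources used here. RMA corrects background, applies quantile normalization and summarises probes. Quantile normalization forces equal distributions, so changes are relative to all genes.

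The annotation gives 1 symbol to 23521 of the 41345 probe sets, which were used; 1814 have several symbols and 16010 are unnamed. For each gene the probe set with the highest mean was kept. The 15312 genes above background were fitted with limma 3.58.1 in R 4.3.3 (lmFit, eBayes with trend), and two-sided p-values were adjusted by Benjamini-Hochberg. The fit was also run on simulated data with independent noise and residual spreads shuffled over genes. The simulated shifts were larger than the changes of Samhd1 and Sp100, so that run does not check calls of their size. Arrays have no read depth, and their number limits the precision. Plots used matplotlib 3.10.9, and promoters came from RefSeq GRCm38.p6.

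The members and gene lists were chosen with earlier results of these data known. All-array values are given for called members and, by role, for those with the 2 smallest p-values and the highest level. For other lists the called genes are named (the 4 with the smallest p where over 6), with Ifnar1, Ifnar2, Irf1 and Ifnb1. A gene that the rule also names is not reported here. Irf9, Epsti1 and the marker genes named were added after their values were seen. Alternatives covered the filter, normalization, probe sets, variance model, array weights, threshold, a replicate block and arrays left out.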

Additional observations from a re-analysis of the deposited data

How the results depend on the processing

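Under all alternatives run, the median change of the members stayed below 0, from -0.24 to -0.14. The count of called members was 4 in the main fit. It was 2 without the variance trend, 3 with the mean of all probe sets and 6 at an adjusted p of 0.10. A stricter filter on dim genes, repeated quantile normalization or a robust variance fit each gave 5. With 1 array left out the count was 1 to 4, the lowest without knockout 3 or control 3. Against control 1 alone, which is assumed to vary like the other arrays, the median change of the members was -0.14. Of all genes, 393 were called, 139 without the trend, 768 at an adjusted p of 0.10, 52 against control 1 alone and 91 to 379 with 1 array left out (219 without knockout 1, 172 without knockout 2, 91 without knockout 3, 194 without control 2, 128 without control 3). The smaller sets have fewer samples, and otherwise the cause was not tested. With the replicate number as a block (replicate block), 4 members and 394 genes were called, 310 of these among the 393. Same-numbered arrays did not deviate together (correlations -0.021, -0.0070 and 0.039), so the numbers were not taken as pairs. Of the 22 members with values on every array by rule, Oasl2, Rigi and Mx2 changed sign in some settings. Oasl2 was 0.012 with median-centred arrays, 0.013 with array weights and 0.18 against control 1 alone, and ran from -0.22 to 0.11 with 1 array left out. Rigi was 0.0070 with median-centred arrays and 0.066 against control 1 alone, and ran from -0.14 to 0.061. Mx2 was 0.33 against control 1 alone and ran from -0.73 to 0.083. Signal near background limits Oas3, Mx2 and Epsti1.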

Other observations

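The probe set that the annotation assigns to Oas1a and Oas1g together was at 5.06, 4.72 and 4.88 on the control arrays and at 4.66, 4.69 and 5.15 on the knockout arrays, with a difference of -0.056 between the group means. The second probe set of Ifi35 was at 9.07, 9.19 and 9.07 in the controls and 9.43, 9.45 and 9.15 in the knockouts, a difference of 0.23 against 0.038 in the probe set used above. The probe set shared by Sp100 and Gm7609 was at 8.44, 8.53 and 8.54 in the controls and at 8.02, 7.66 and 7.83 in the knockouts, a difference of -0.67.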
